A study of Mus musculus with 9 samples.

Results

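Aminoacyl-tRNA synthetases are the enzymes that join each amino acid to its transfer RNA. The genes were taken by symbol alone, from the name pattern of the family (the amino acid letter followed by ars, with Eprs, Farsa and Farsb), and 37 of the 13526 genes of the expression table matched. Symbols ending in 2 are mitochondrial enzymes (17 genes), and the other 20 were counted as cytosolic. Gars and Kars serve both compartments and were counted with the cytosolic enzymes. The name pattern itself uses no measured value, and all 37 genes passed the filter on low values that left 12932 genes for testing.

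The libraries were made from bone marrow macrophages of C57BL/6 mice, 8 weeks old, that had been grown for 3 days in M-CSF at 10 ng/mL, a factor that keeps macrophages alive and dividing. There were 3 groups of 3 libraries: RANKL plus rmCst6 for 48 h, RANKL for 48 h, and control macrophages without either. RANKL is the cytokine that turns macrophages into osteoclasts, and rmCst6 is the recombinant mouse form of cystatin E/M, a secreted inhibitor of cysteine proteases. The sample labels name no dose of RANKL or rmCst6, and it is not stated whether the control cells spent the same 48 h in culture. The sources also do not say whether the libraries of a group came from separate mice or cultures, so the p-values measure the spread between these libraries, which may be technical. Values are log2 normalized expression, in which a difference of 1 is a doubling.

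Cytosolic synthetases supply the ribosomes that translate nuclear messages, and part of them sit together in a multisynthetase complex held by the scaffold proteins Aimp1, Aimp2 and Eef1e1. Mitochondrial synthetases are also encoded in the nucleus, are imported, and charge the tRNAs that mitochondria use to make subunits of the respiratory chain. Uncharged cytosolic tRNA is sensed by the kinase Gcn2 (Eif2ak4), which phosphorylates eIF2alpha and raises translation of Atf4, a transcription factor whose known targets in mammals include many cytosolic synthetase genes, amino acid transporters and Asns. Osteoclasts are rich in mitochondria.

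Atf4 binds with a C/EBP partner to a composite element, and the letters TGATGNAA were therefore searched on both strands of RefSeq promoter windows (GRCm38.p6, 250 bases before the gene's start and 50 bases from it). Windows were matched for 27 of the 37 genes, 13 cytosolic and 14 mitochondrial. The element was found in 5 of 13 cytosolic genes and in 0 of 14 mitochondrial genes, against 3.97% of all 32851 windows. The stretches below are those of the 5 cytosolic genes with the element in capitals, each 150 bases and 5′ to 3′ on the gene's own strand, because both Aars and Yars, which rose with rmCst6, and Gars and Iars, which fell, are among them.
Aars, chr8:111033712-111033861, plus strand: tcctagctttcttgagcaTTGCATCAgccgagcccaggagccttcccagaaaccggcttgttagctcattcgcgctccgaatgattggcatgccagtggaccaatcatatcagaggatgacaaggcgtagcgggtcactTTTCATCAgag
Yars, chr4:129189773-129189922, plus strand: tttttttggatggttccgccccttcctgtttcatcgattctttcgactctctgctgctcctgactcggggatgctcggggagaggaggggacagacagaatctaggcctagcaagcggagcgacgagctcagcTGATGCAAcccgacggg
Tars, chr15:11399639-11399788, minus strand: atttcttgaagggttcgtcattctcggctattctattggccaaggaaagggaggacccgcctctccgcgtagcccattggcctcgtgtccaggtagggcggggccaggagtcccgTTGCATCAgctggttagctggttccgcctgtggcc
Gars, chr6:55037871-55038020, plus strand: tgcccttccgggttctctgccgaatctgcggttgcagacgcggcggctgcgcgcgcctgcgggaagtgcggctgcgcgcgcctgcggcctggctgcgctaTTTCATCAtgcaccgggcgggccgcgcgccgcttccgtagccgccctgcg
Iars, chr13:49682000-49682149, plus strand: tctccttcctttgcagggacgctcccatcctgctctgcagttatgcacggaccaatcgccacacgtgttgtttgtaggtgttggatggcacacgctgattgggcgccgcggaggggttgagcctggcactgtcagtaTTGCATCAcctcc

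In Aars the matches began 112 bases before the RefSeq start and 9 bases after its first base, and in Gars and Tars they began 30 and 15 bases before that start. For Aars the RefSeq start differs from that of the GENCODE span given below. The Aars window lies wholly inside that span, which begins further upstream. For the mitochondrial enzymes, the letters GCGCANGCG of the element bound by NRF1, a regulator of nuclear genes for mitochondrial proteins, were found in 4 of 14 genes (Iars2, Mars2, Vars2 and Wars2). They were also found in 3 of 13 cytosolic genes (Farsb, Kars and Tars), against 6.25% of all windows. The stretches of Mars2 and Iars2 are shown for their large falls with rmCst6, with the element in capitals.
Mars2, chr1:55237047-55237196, plus strand: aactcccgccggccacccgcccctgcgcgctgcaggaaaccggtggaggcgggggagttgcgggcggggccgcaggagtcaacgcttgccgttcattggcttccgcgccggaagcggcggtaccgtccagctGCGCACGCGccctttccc
Iars2, chr1:185329382-185329531, minus strand: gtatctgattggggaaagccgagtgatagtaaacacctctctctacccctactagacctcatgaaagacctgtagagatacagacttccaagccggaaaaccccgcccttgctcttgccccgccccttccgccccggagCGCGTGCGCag

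Of the other motifs searched on both strands, CCGGAAG, the core bound by ETS factors such as Gabpa, was in 5 of 13 cytosolic and 4 of 14 mitochondrial genes (8.86% of all windows). CACGTG, the E-box of Myc and related factors, was in 4 of 13 and 1 of 14 (7.15%). The interferon-linked letters GAAANNGAA were in 1 of 13 and 0 of 14 (8.56%), and TTCNNNGAA, the gamma-activated site, was in 2 of 13 and 1 of 14 (8.3%). In Kars the matches of TTCNNNGAA and CCGGAAG shared bases. A match is a stretch of letters and not a measured binding site.

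Across the whole table, the libraries of a group were alike (Pearson r of 0.989 to 0.991 over genes, against 0.859 to 0.903 between groups). The macrophage markers were detected in all groups, and all 6 osteoclast markers rose with RANKL. With rmCst6 added, all 6 osteoclast markers fell against RANKL alone, and their summed linear level was 8560 to 1.153e+04 in RANKL plus rmCst6, 4.591e+05 to 6.001e+05 in RANKL and 931.3 to 984.4 in control, where Calcr was listed at 0 in all libraries. All 9 neutrophil markers were higher with rmCst6 than with RANKL alone, with summed levels of 4.617e+04 to 5.402e+04 in RANKL plus rmCst6, 4550 to 8333 in RANKL and 1.287e+04 to 1.877e+04 in control. Megakaryocyte markers (4 of 4) and the endothelial markers in the table (3 of 3) were also higher with rmCst6 than with RANKL alone. So were 4 of 5 stromal markers and 4 of 7 macrophage markers, with 1 of 7 lower. Over all genes, 34.8% were called higher and 38.0% lower in this comparison. With rmCst6 against control, 1 of 5 stromal markers was higher and 2 were lower. Of the 7 macrophage markers, 4 were higher and 3 lower than in control. Summed megakaryocyte levels were 6372 to 8714 in RANKL plus rmCst6, 674 to 969.8 in RANKL and 8153 to 8953 in control. In the same order, stromal sums were 2977 to 5456, 2475 to 3120 and 4581 to 8024. Macrophage sums were 2.244e+05 to 2.316e+05, 1.498e+05 to 1.54e+05 and 2.887e+05 to 2.988e+05. Endothelial sums were 3281 to 3795 with rmCst6, 331.7 to 362.8 in RANKL and 128 to 202.5 in control. With rmCst6 against control, 2 of these 3 markers were higher and 1 was lower. The erythroid marker in the table, Hba-a1, stayed under the filter in all libraries. The part of these cells in the synthetase results was not tested. In bulk RNA, fewer cells of a type and less RNA per cell cannot be told apart.

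The first question was what RANKL did to the synthetases. Nearly the whole family was higher in RANKL than in control, in both compartments and by a similar amount. Of the cytosolic genes, 19 of 20 were higher and 0 were lower, and of the mitochondrial genes 14 of 17 were higher and 1 was lower (adjusted p under 0.05 from limma). Over all genes, 36.6% were called higher and 35.9% lower in this comparison. The median log2 fold change was 0.84 for the cytosolic and 0.85 for the mitochondrial genes, against −0.014 over all genes. Centring every library on its own median moved that all-gene median to −0.12, and the synthetase medians then stood at 0.73 and 0.75.

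Iars, which charges isoleucine tRNA, had the largest cytosolic rise with RANKL. Its values were 12.58, 12.44 and 12.54 in RANKL, against 10.85, 10.78 and 10.78 in control, which is 3.30-fold (log2 1.72 ± 0.053 SE, adjusted p = 2.85e-11). Farsb, the beta subunit of the phenylalanine enzyme, had 11.10, 11.13 and 11.05 in RANKL, against 9.79, 9.56 and 9.60 in control (2.72-fold, adjusted p = 1.03e-09). Its partner subunit Farsa was 1.95-fold higher. Gars, the glycine enzyme of both compartments, had 12.26, 12.06 and 12.00 in RANKL, against 10.69, 10.65 and 10.72 in control (2.68-fold, adjusted p = 9.65e-10). For all of these the groups were far apart relative to their spread. The other dual enzyme, Kars for lysine, rose less, by 1.54-fold, with 11.36, 11.38 and 11.27 in RANKL and 10.65, 10.73 and 10.74 in control.

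The remaining cytosolic rises with RANKL ran between 1.18-fold for the glutamine enzyme Qars and 2.30-fold for the aspartate enzyme Dars. Aars (alanine, 2.14-fold), Mars1 (methionine, 2.13-fold) and Yars (tyrosine, 2.12-fold) were in the upper part of that range, and Lars (leucine, 1.42-fold), Sars (serine, 1.47-fold) and Wars (tryptophan, 1.49-fold) in the lower part. The Qars call was the weakest (adjusted p = 0.0304) and was lost without RANKL replicate 1 (adjusted p = 0.119), without control replicate 1 (0.0722) and without control replicate 3 (0.133). Nars, the asparagine enzyme, was the exception among cytosolic genes, with 13.06, 12.82 and 12.84 in RANKL and 12.94, 12.89 and 12.93 in control (log2 −0.01, 95% interval −0.14 to 0.11).

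Among mitochondrial enzymes, Mars2, which charges the methionine tRNA of mitochondria, rose most with RANKL. Its values were 8.63, 8.51 and 8.65 in RANKL, against 6.78, 6.77 and 6.75 in control, which is 3.55-fold (log2 1.83 ± 0.12 SE, adjusted p = 2.10e-08). Nars2, for asparagine, had 8.22, 8.50 and 7.98 in RANKL, against 7.10, 6.98 and 6.72 in control (2.46-fold, adjusted p = 3.14e-05). Ears2, for glutamate, had 7.49, 7.12 and 7.39 in RANKL, against a wide 5.56, 6.50 and 6.18 in control (2.38-fold, adjusted p = 0.000217). The groups did not overlap for any of these genes, although Ears2 varied more between control libraries than the others.

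Lars2 was the only mitochondrial enzyme that was lower in RANKL. It had 11.28, 11.08 and 11.15 in RANKL, against 11.26, 11.92 and 11.50 in control (log2 −0.39, adjusted p = 0.0462). The groups overlapped, and the call was lost when RANKL plus rmCst6 replicate 1 (adjusted p = 0.0534), any RANKL replicate (0.0571 to 0.121) or control replicates 2 or 3 (0.221 and 0.0693) were left out. Pars2 (log2 0.03, 95% interval −0.27 to 0.34) and Hars2 (−0.01, −0.15 to 0.12) did not pass. The weakest mitochondrial rises were Cars2 (1.25-fold) and Vars2 (1.21-fold), and the Cars2 call was lost without RANKL replicate 1 (adjusted p = 0.0506) or control replicate 1 (0.0501). The other 9 mitochondrial genes rose by 1.44-fold (Aars2) to 2.01-fold (Tars2).

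**Figure D1:**
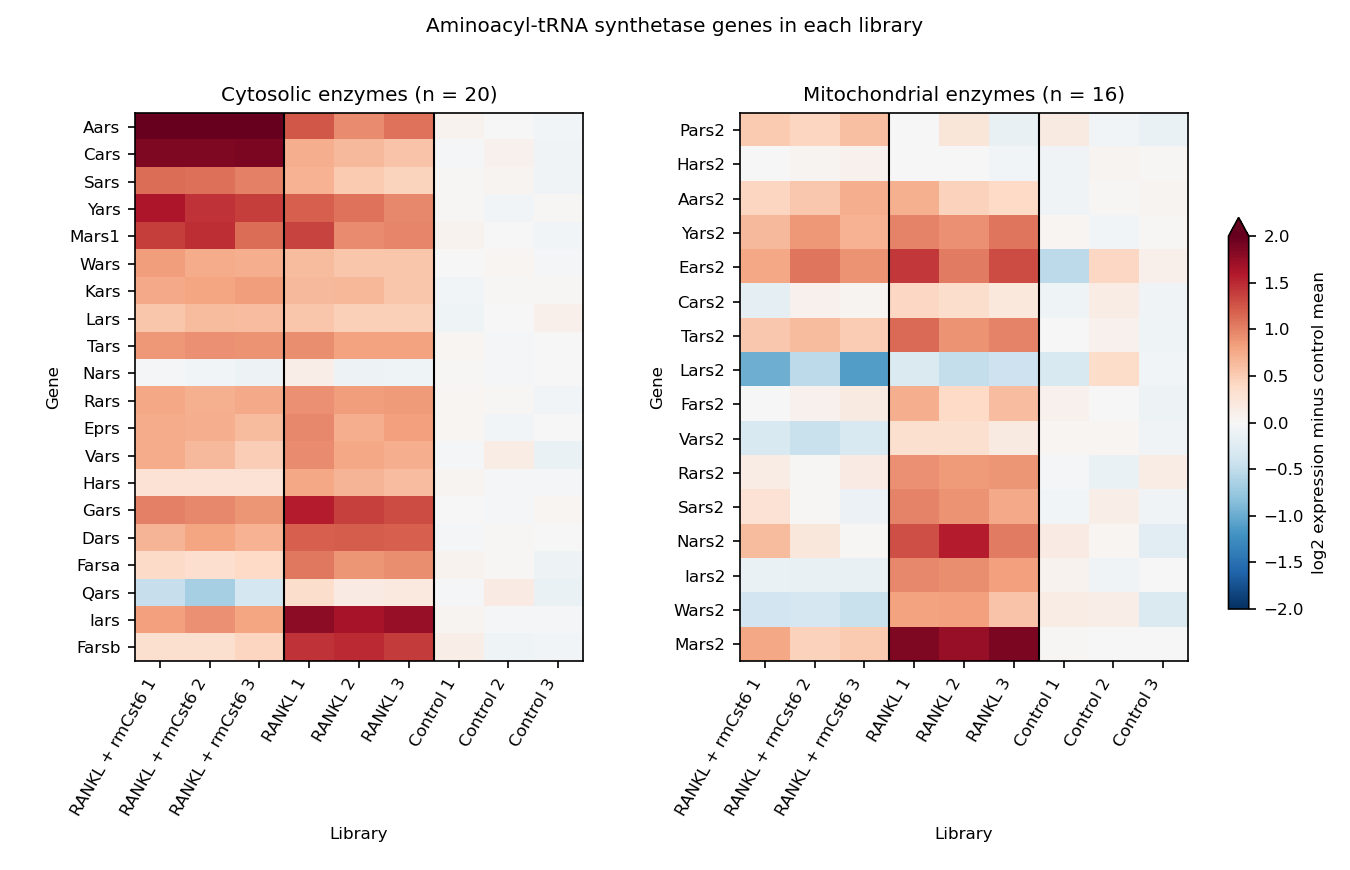
Log2 expression of 20 cytosolic (left) and 16 mitochondrial (right) synthetase genes in each of the 9 libraries, as the difference from the gene's control mean (colour scale from −2 to 2, values above 2 in the darkest red). Columns are the RANKL plus rmCst6, RANKL and control libraries, and genes are ordered by their change with rmCst6. The red RANKL columns fade in most mitochondrial rows in RANKL plus rmCst6 and darken in Aars, Cars, Sars and Yars.

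The second question was what rmCst6 changed on top of RANKL. Here the counts of the compartments differed. Of the mitochondrial genes, 13 of 17 (76.5%) were lower in RANKL plus rmCst6 than in RANKL, 1 was higher and 3 did not pass. Of the cytosolic genes, 6 of 20 (30.0%) were higher, 8 (40.0%) were lower and 6 did not pass. Over all genes, 34.8% were called higher and 38.0% lower, so the cytosolic shares lay near those of the whole table, while the mitochondrial share of lower genes lay above it. The median log2 fold change was −0.49 for mitochondrial and −0.083 for cytosolic genes, against −0.017 over all genes. Without Gars and Kars, 5 of 18 cytosolic genes were higher and 7 lower. This comparison and that of RANKL with control share the RANKL libraries, so a gene that is high in those libraries by chance is moved in opposite directions by both.

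Aars (chr8:111033144-111057664, plus strand), the alanine enzyme, rose most. Its values were 13.29, 13.22 and 13.22 in RANKL plus rmCst6, against 12.01, 11.73 and 11.87 in RANKL, which is 2.59-fold (log2 1.37 ± 0.065 SE, adjusted p = 9.50e-10). Cars (chr7:143557230-143600090, minus strand), the cysteine enzyme, had 11.34, 11.34 and 11.36 in RANKL plus rmCst6, against 10.21, 10.13 and 10.05 in RANKL (2.32-fold, adjusted p = 1.23e-09). Sars, the serine enzyme, had 12.22, 12.21 and 12.11 in RANKL plus rmCst6, against 11.80, 11.64 and 11.55 in RANKL (1.44-fold, adjusted p = 8.56e-06). All 3 were also higher in RANKL than in control, so that RANKL plus rmCst6 held their highest values. The span of Aars in the annotation contains Exosc6 on the same strand, and the sources do not say how reads in that stretch were assigned.

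Yars was 10.65 ± 0.12 in RANKL plus rmCst6 and 10.25 ± 0.11 in RANKL (SD, n = 3 each), a rise of 1.32-fold (adjusted p = 0.000406). Smaller rises passed for the tryptophan enzyme Wars and for Kars. Wars, which is known as an interferon-inducible gene in human cells, had 11.02, 10.93 and 10.92 in RANKL plus rmCst6, against 10.83, 10.74 and 10.74 in RANKL (1.14-fold, adjusted p = 0.00596). Kars had 11.46, 11.49 and 11.54 in RANKL plus rmCst6, against 11.36, 11.38 and 11.27 in RANKL (1.12-fold, adjusted p = 0.00927). The groups of these genes did not overlap, but the rises of Wars and Kars were under 0.2 on the log2 scale.

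The largest cytosolic falls were in Farsb (chr1:78417975-78488897, minus strand), with 9.97, 9.97 and 10.08 in RANKL plus rmCst6, against 11.10, 11.13 and 11.05 in RANKL (2.13-fold lower, log2 −1.09 ± 0.067 SE, adjusted p = 1.22e-08). Farsa, the other subunit of the same enzyme, was 1.51-fold lower. Iars had 11.62, 11.72 and 11.58 in RANKL plus rmCst6, against 12.58, 12.44 and 12.54 in RANKL (1.84-fold lower, adjusted p = 9.63e-09). Qars had 11.36, 11.16 and 11.48 in RANKL plus rmCst6, against 12.18, 12.00 and 12.02 in RANKL (1.66-fold lower, adjusted p = 8.48e-06). Its RANKL plus rmCst6 values also lay under those of control, which were 11.81, 11.99 and 11.70.

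Gars had 11.69, 11.65 and 11.57 in RANKL plus rmCst6, against 12.26, 12.06 and 12.00 in RANKL (1.39-fold lower, adjusted p = 2.94e-05), so the glycine and lysine enzymes that serve both compartments moved in opposite directions. Dars (1.39-fold) and Hars (1.32-fold) were also lower. The call of the arginine enzyme Rars was marginal (1.09-fold lower, adjusted p = 0.0408) and was lost when any RANKL plus rmCst6 or RANKL replicate was left out (0.0505 to 0.137). Among the 6 genes that did not pass, the log2 changes were 0.24 ± 0.11 (SE) for Mars1, 0.10 for Lars, 0.05 for Tars, −0.05 for Nars, −0.13 for Eprs (the joined glutamate and proline enzyme) and −0.19 ± 0.085 (SE) for Vars. Adjusted p was 0.0660 for Mars1, 0.0633 for Eprs and 0.0653 for Vars. Mars1 passed without RANKL plus rmCst6 replicate 3 (adjusted p = 0.0121) or RANKL replicate 1 (0.0048), Eprs without RANKL replicate 2 (0.0144), and Vars without RANKL plus rmCst6 replicate 1 (0.0332) or control replicate 2 (0.0454). The end of Mars1 overlaps the end of Ddit3 on the opposite strand, and Farsb, Wars, Yars, Cars2, Ears2, Fars2 and Iars2 also share bases with protein-coding genes of the other strand. The libraries were stranded, the strand setting of the counting is not given, and the part of these overlaps was not tested.

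**Figure D2:**
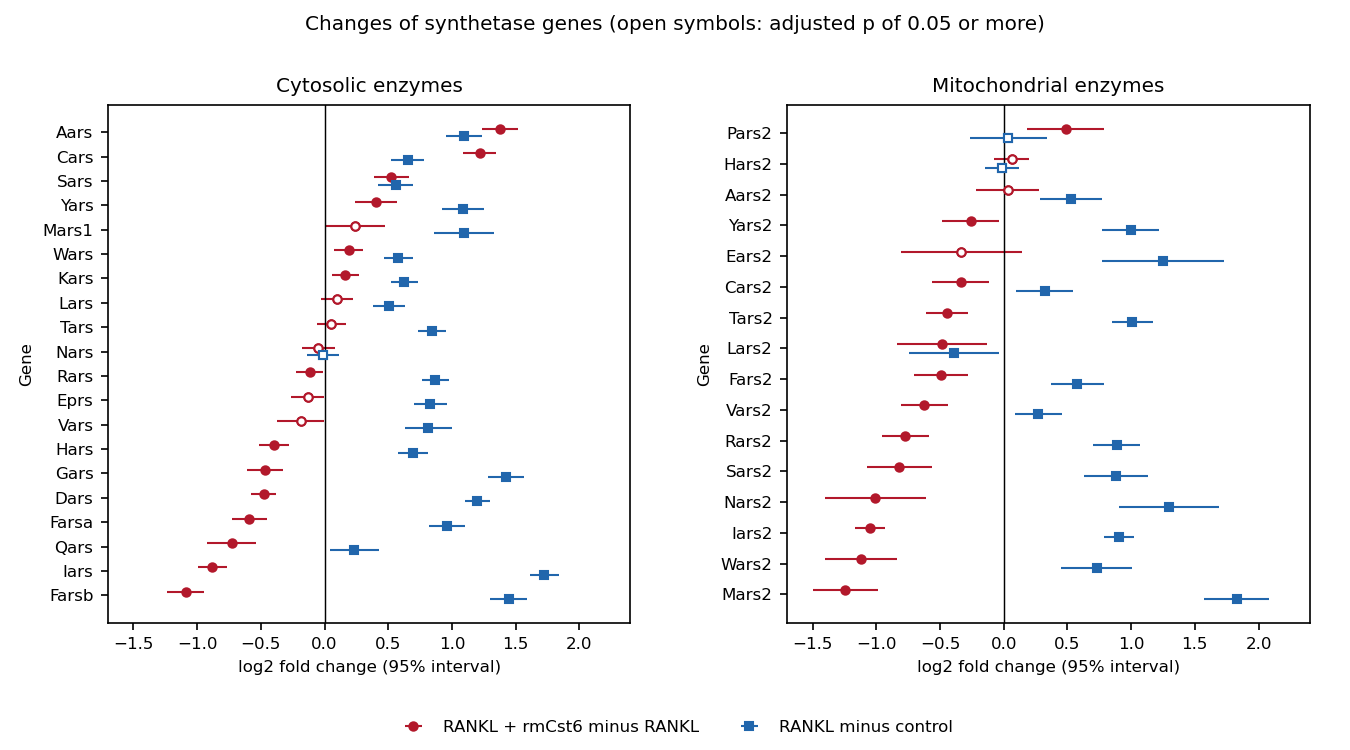
Log2 fold change of 36 synthetase genes with its 95% interval from limma, for RANKL plus rmCst6 minus RANKL (red circles) and RANKL minus control (blue squares), with cytosolic genes on the left and mitochondrial genes on the right. Open symbols did not pass an adjusted p of 0.05. Most blue points lie right of 0 in both panels, with Nars, Hars2 and Lars2 left of it, while the red points of the cytosolic genes run from −1.09 (Farsb) to 1.37 (Aars) and most red points of the mitochondrial genes lie left of 0.

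Among mitochondrial enzymes, Mars2 (chr1:55237177-55248470, plus strand) also fell most with rmCst6. It had 7.54, 7.23 and 7.29 in RANKL plus rmCst6, against 8.63, 8.51 and 8.65 in RANKL (2.37-fold lower, log2 −1.24 ± 0.12 SE, adjusted p = 7.42e-07). Wars2 (chr3:99141068-99239186, plus strand), for tryptophan, had 7.58, 7.63 and 7.52 in RANKL plus rmCst6, against 8.78, 8.78 and 8.53 in RANKL (2.18-fold lower, adjusted p = 5.27e-06). Iars2 (chr1:185284726-185329396, minus strand), for isoleucine, had 10.57, 10.55 and 10.55 in RANKL plus rmCst6, against 11.67, 11.62 and 11.52 in RANKL (2.07-fold lower, adjusted p = 1.87e-09). In Wars2 and Iars2 the RANKL plus rmCst6 libraries lay below all control libraries, whose values were 8.13, 8.10 and 7.69 for Wars2 and 10.77, 10.64 and 10.70 for Iars2. In Mars2 they lay between RANKL and control.

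Nars2 (2.01-fold), Sars2 (1.77-fold), Rars2 (1.71-fold), Vars2 (1.54-fold), Fars2 (1.41-fold), Tars2 (1.36-fold) and Cars2 (1.27-fold) were lower as well. Nars2 had 7.56, 7.16 and 6.96 in RANKL plus rmCst6, a wider spread than most. The calls of Lars2 and Yars2 were weak. Lars2 had 10.58, 11.04 and 10.44 in RANKL plus rmCst6, against 11.28, 11.08 and 11.15 in RANKL (1.40-fold lower, adjusted p = 0.0170), and its call was lost without RANKL plus rmCst6 replicates 1 (0.0580) or 3 (0.0808) or RANKL replicate 1 (0.0628). Yars2 had a log2 change of −0.26 (adjusted p = 0.0383), and its call was lost without RANKL plus rmCst6 replicates 1 (0.123) or 3 (0.0920) or RANKL replicates 1 (0.0714) or 3 (0.125).

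Pars2, the proline enzyme of mitochondria, was the only one that rose. It had 7.65, 7.56 and 7.74 in RANKL plus rmCst6, against 7.14, 7.38 and 6.99 in RANKL and 7.32, 7.08 and 7.01 in control (1.40-fold above RANKL, adjusted p = 0.00723). Hars2, the histidine enzyme, passed in no comparison, with 9.53, 9.58 and 9.61 in RANKL plus rmCst6, 9.53, 9.53 and 9.48 in RANKL and 9.45, 9.57 and 9.55 in control. Hars2 and Hars overlap at their starts on opposite strands. The other gene that passed in no comparison was the cytosolic Nars, with 12.89, 12.87 and 12.81 in RANKL plus rmCst6, although with quantile normalization it passed against RANKL (log2 −0.14, adjusted p = 0.0303). Aars2 (log2 0.03, 95% interval −0.21 to 0.28) and Ears2 (−0.33, −0.81 to 0.14) did not pass against RANKL.

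**Figure D3:**
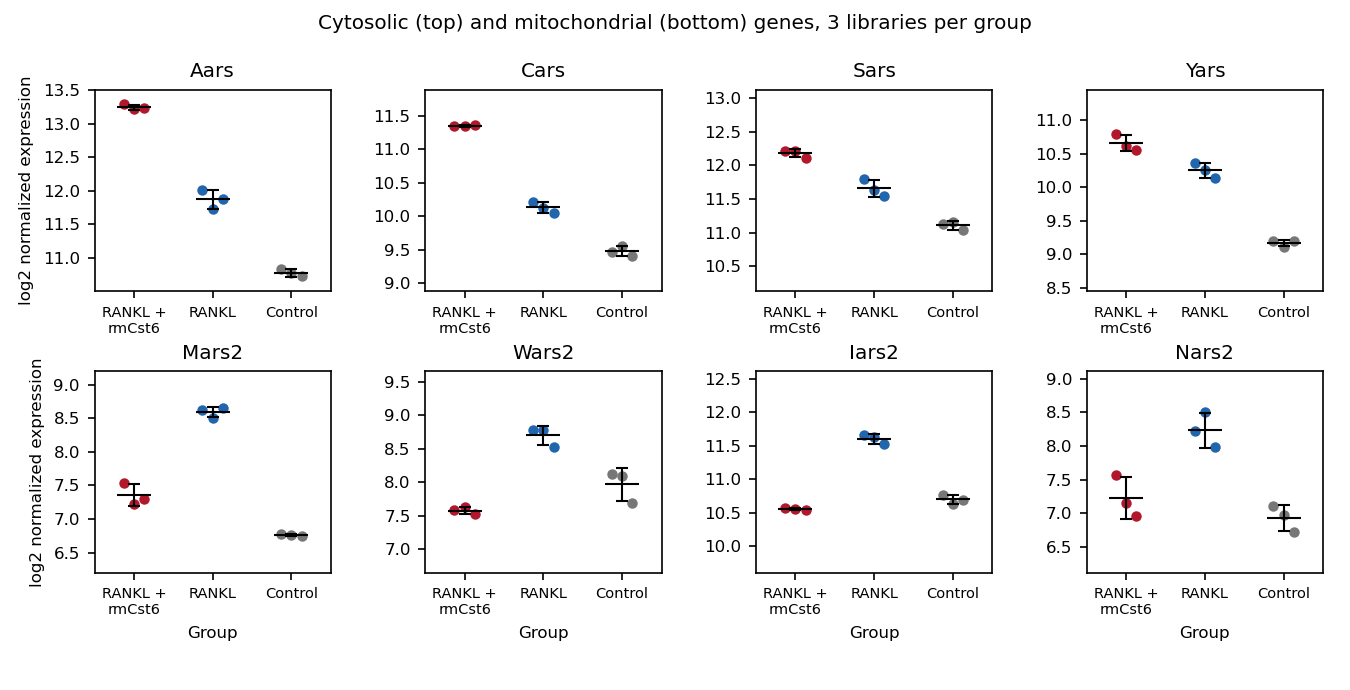
Log2 normalized expression of 4 cytosolic genes (Aars, Cars, Sars and Yars) and 4 mitochondrial genes (Mars2, Wars2, Iars2 and Nars2) in the RANKL plus rmCst6, RANKL and control libraries, each panel spanning 3 log2 units on an axis that does not start at 0. Points are libraries, and black marks are the mean and SD (n = 3). The cytosolic genes were highest in RANKL plus rmCst6, and the mitochondrial genes were highest in RANKL.

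Set directly against control, most cytosolic enzymes were higher in RANKL plus rmCst6, while the mitochondrial ones went both ways. Of the cytosolic genes, 18 of 20 were higher than control and 1, Qars, was lower (1.41-fold, adjusted p = 0.000258). Of the mitochondrial genes, 6 of 17 were higher, 4 were lower and 7 did not pass. Over all genes, 36.7% were called higher and 35.1% lower. The medians were 0.76 for cytosolic and 0.086 for mitochondrial genes, against 0.012 over all genes, and with median centring the mitochondrial median was 0.015. Aars stood 5.53-fold above control (adjusted p = 4.32e-12), Cars 3.65-fold, Yars 2.80-fold, Mars1 2.51-fold and Sars 2.11-fold. The mitochondrial genes above control were Ears2 (1.89-fold), Yars2 (1.67-fold), Mars2 (log2 0.59), Tars2 (1.48-fold), Aars2 (1.47-fold) and Pars2 (1.43-fold). Those below it were Lars2 (1.83-fold), Wars2 (1.31-fold), Vars2 (1.27-fold) and Iars2 (1.11-fold). Without control replicate 1 the count of lower mitochondrial genes was 2.

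As a summary per library, the deviation of each gene from its mean over the 9 libraries was averaged over each compartment. The cytosolic average was 0.28, 0.26 and 0.23 in RANKL plus rmCst6, 0.40, 0.26 and 0.25 in RANKL, and −0.54, −0.55 and −0.59 in control. The mitochondrial average was −0.13, −0.11 and −0.15 in RANKL plus rmCst6, 0.49, 0.41 and 0.36 in RANKL, and −0.30, −0.22 and −0.34 in control. Cytosolic values of RANKL plus rmCst6 thus overlapped those of RANKL, whereas the mitochondrial values lay between RANKL and control. The cytosolic minus mitochondrial difference was 0.41, 0.37 and 0.39 in RANKL plus rmCst6, −0.09, −0.15 and −0.11 in RANKL, and −0.24, −0.33 and −0.25 in control. RANKL replicate 1 had the highest average in both compartments, and without it the medians for RANKL plus rmCst6 against RANKL were −0.022 for cytosolic and −0.43 for mitochondrial genes.

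The same split was measured amino acid by amino acid, as the log2 difference between a cytosolic gene and its mitochondrial partner. Levels of different genes were not scaled to gene length, so only the change of this difference between groups was read. In 14 of 18 pairs the difference was larger in RANKL plus rmCst6 than in RANKL, with a median change of 0.54. It grew most for Cars minus Cars2, which was 2.77 ± 0.15 in RANKL plus rmCst6 and 1.21 ± 0.036 in RANKL (SD, n = 3 each), a change of 1.56. Mars1 minus Mars2 changed by 1.48, both Aars minus Aars2 and Sars minus Sars2 by 1.34, and Wars minus Wars2 by 1.31. In Aars the cytosolic partner moved, in Mars1 mainly the mitochondrial one, and in Cars and Sars both did.

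The difference shrank for Eprs minus Pars2 (−0.62), Farsb minus Fars2 (−0.60), Hars minus Hars2 (−0.46) and Farsa minus Fars2 (−0.10). In the exact two-sided permutation test of 3 against 3 libraries the smallest possible p is 0.1, so that none of the 18 pairs could pass 0.05, and each pair named here gave p = 0.1 except Farsa minus Fars2 (p = 0.3). Genes shared between pairs (Eprs and Fars2) make those pairs dependent. In RANKL against control the median change was 0.34, with 11 of 18 pairs larger, and in RANKL plus rmCst6 against control it was 0.75, with 16 of 18 larger.

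**Figure D4:**
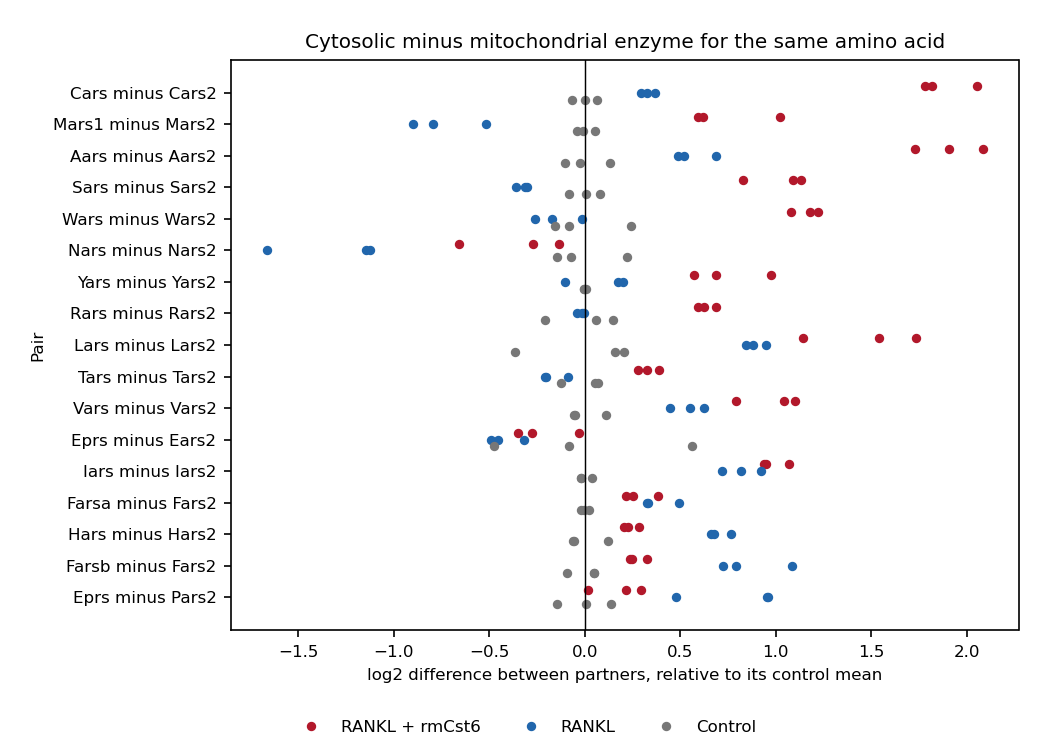
Log2 difference between the cytosolic and the mitochondrial enzyme for the same amino acid, relative to the mean of that difference in control, for 17 pairs. Each point is a library of RANKL plus rmCst6 (red), RANKL (blue) or control (grey), and pairs are ordered by the change with rmCst6. Red lies right of blue for the upper pairs, by 1.56 for Cars minus Cars2, and left of it for the lowest ones, by 0.62 for Eprs minus Pars2.

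Within the cytosolic enzymes, 12 are commonly listed as Atf4 targets (Aars, Cars, Eprs, Gars, Iars, Lars, Mars1, Nars, Sars, Tars, Wars and Yars). In RANKL plus rmCst6 against RANKL, 5 of these 12 (41.7%) were higher, 2 (16.7%) lower and 5 not called, the median being 0.14. Of the 8 not listed, 1 was higher (Kars), 6 (75.0%) were lower and 1 was not called, the median being −0.44. Over all genes, 34.8% were called higher and 38.0% lower, with a median of −0.017. The share of higher genes among those listed thus lay near that of the whole table, and their share of lower genes lay below it. In RANKL against control the medians of these subsets were both 0.84. Of the genes with the letters TGATGNAA in the promoter stretches shown above, Aars and Yars rose and Gars and Iars fell. Tars did not pass (log2 0.05, 95% interval −0.06 to 0.16). Among the cytosolic genes whose windows held no match, Sars and Kars rose and Dars, Farsa, Farsb and Qars fell. Eprs and Mars1, also without a match, did not pass. Cars and Wars, which rose, had no window. The part of Atf4 in these directions was not tested.

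Of the 8 synthetases of the multisynthetase complex, 1 was higher with rmCst6 (Kars), 4 were lower (Dars, Iars, Qars and Rars) and 3 did not pass. Over all genes, 34.8% were called higher and 38.0% lower. All 8 were higher in RANKL than in control, against 36.6% of all genes higher and 35.9% lower. The Rars call with rmCst6 and the Qars call with RANKL were the weak ones described above. Among the scaffold proteins of the complex, Aimp1 had 9.74, 9.76 and 9.68 in RANKL plus rmCst6, against 10.15, 10.06 and 9.92 in RANKL (log2 −0.32, adjusted p = 0.00101). Aimp2 was lower by a similar amount (log2 −0.39, adjusted p = 0.0029), and Eef1e1 did not pass (−0.07). By catalytic fold, 0 of 9 mitochondrial class I enzymes were higher and 8 lower with rmCst6, and of the 8 class II enzymes 1 was higher and 5 were lower. Cytosolic class I genes were split into 3 higher and 3 lower of 9, and class II genes into 3 higher and 5 lower of 10.

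Other genes that act with the synthetases were read from lists. For all lists, the shares over all genes were 34.8% higher and 38.0% lower with rmCst6 against RANKL. In RANKL against control they were 36.6% and 35.9%. The Atf4 amino acid response, 19 genes for amino acid supply and stress, had 14 genes higher, 2 lower and 3 not passing in RANKL plus rmCst6 against RANKL (median 1.54), and 10 higher and 6 lower in RANKL against control (median 0.19). Atf4 itself had 13.21, 13.23 and 13.22 in RANKL plus rmCst6, 12.32, 12.23 and 12.19 in RANKL and 12.10, 12.07 and 12.00 in control (1.97-fold above RANKL, adjusted p = 7.47e-10). Ddit3, a stress transcription factor, was 13.7-fold higher with rmCst6, and Asns, which makes asparagine, was 3.32-fold higher. Log2 changes were 5.06 for the stress regulator Nupr1 and 2.17 for Slc3a2, the heavy chain of amino acid transporters. The genes that fell, named here after their values were seen, were the cystine transporter Slc7a11 (log2 −1.28) and the mitochondrial serine enzyme Shmt2 (−0.23).

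The kinases and phosphatase subunits acting on eIF2alpha showed no shared direction, with 2 of 6 higher, 3 lower and 1 not passing with rmCst6. Eif2ak2, the kinase for double-stranded RNA and an interferon-inducible gene, rose by 1.99 on the log2 scale, as did Ppp1r15b by 0.73, and Eif2ak3, the endoplasmic reticulum kinase Perk, fell by 2.18. Eif2ak4, the kinase Gcn2 that senses uncharged tRNA, was named after its values were seen, and its log2 change was −0.23 (adjusted p = 0.0293) with rmCst6 against RANKL, −0.21 in RANKL against control and −0.45 in RANKL plus rmCst6 against control. Interferon-inducible genes were among the largest rises, with 11 of 12 higher (median 4.83). Irf7 had a log2 change of 6.07, Stat2 of 4.53 and Rsad2 of 5.77, and the exception, Ido1, was lower (−2.60, named after its value was seen).

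Most mitochondrial translation factors changed in the same direction as most mitochondrial synthetases. All 8 were higher in RANKL than in control (median 0.79), and in RANKL plus rmCst6 against RANKL 6 of 8 were lower, 0 were higher and 2 did not pass (median −0.54). Tufm, which brings charged tRNA to the mitochondrial ribosome, had 10.28, 10.24 and 10.25 in RANKL plus rmCst6, 11.79, 11.51 and 11.54 in RANKL and 10.19, 10.20 and 10.14 in control (2.56-fold below RANKL, adjusted p = 1.86e-09). The elongation factor Gfm1 was also 2.56-fold lower, and Tsfm, which recycles Tufm, had a log2 change of −1.13. Of 13 genes for mitochondrial gene expression and biogenesis, 10 were lower and 3 higher with rmCst6 (median −0.40). Ppargc1b, a coactivator of mitochondrial biogenesis in osteoclasts, was 14.7-fold lower, Lrpprc, which stabilizes mitochondrial mRNA, had a log2 change of −1.49, Tfb2m of −1.21 and Tfam, the factor that packages mitochondrial DNA, of −0.24. The 3 higher genes, named after their values were seen, were Slirp (log2 0.92), the partner of Lrpprc, and the transcription factor genes Nrf1 (0.61) and Gabpb1 (0.38). Nrf1 itself was lower in RANKL than in control (log2 −0.48).

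Mitochondrial tRNA maturation was mixed, with 5 of 12 lower, 3 higher and 4 not passing with rmCst6 and 9 higher in RANKL against control. The subunits of mitochondrial RNase P Trmt10c (log2 −0.97) and Hsd17b10 (−0.99) and the methyltransferase Trmt5 (−0.49) were lower. The other subunit of this enzyme, Prorp, named after its value was seen, did not pass (log2 −0.086, adjusted p = 0.465). Mitochondria lack a glutamine enzyme in mammals and convert glutamate on the tRNA with the amidotransferase of Gatb, Gatc and Qrsl1. Gatb had a log2 change of −0.89 with rmCst6 and Gatc of 0.57, and of the 4 genes on this list, which includes Mtfmt for the initiator tRNA (0.20), 2 did not pass.

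In the cytosol, all 5 elongation factors fell with rmCst6 (median −1.14) and all 5 were higher in RANKL than in control (median 0.44). Eef1a1, which carries charged tRNA to the cytosolic ribosome, had a log2 change of −1.46, Eef1b2 of −1.19 and Eef1d of −1.13 with rmCst6. The cytosolic elongation factors were thus lower with rmCst6, as were most mitochondrial translation factors. The 20 cytosolic synthetases went both ways, with 6 higher, 8 lower and a median of −0.083.

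**Figure D5:**
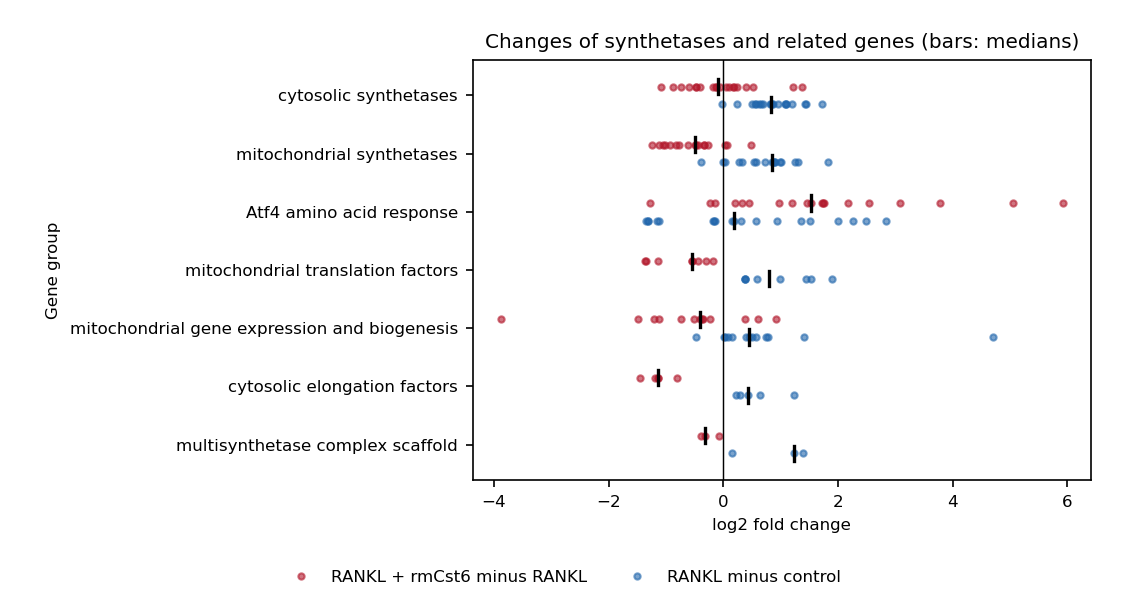
Log2 fold changes of the synthetases and of related gene lists, for RANKL plus rmCst6 minus RANKL (red) and RANKL minus control (blue). Each point is a gene and each black bar a median. With rmCst6 the median of the Atf4 amino acid response was 1.54, and those of the mitochondrial synthetases, mitochondrial translation factors and cytosolic elongation factors were −0.49, −0.54 and −1.14.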

How the data were processed

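The values are those the authors deposited: log2 normalized expression of 13526 genes, from 9 stranded mRNA libraries. Salmon 1.2.1, DESeq2 and GRCm38.p6 are named in the submitters' processing notes without role. The strand setting of counting and the pseudocount are not given in the sources used here, and fold changes are read on the scale as deposited, which understates changes of low genes. When low values (under 10) were divided by a step fitted per library, at most 55.5% came out whole (tolerance 0.02), so reads were not recovered, depth is unknown and no count test was run.

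A gene was tested if 3 or more of the 9 libraries reached log2(10), which 12932 genes did and 594 did not. Group means over all libraries were compared with limma 3.58.1 (R 4.3.3, statmod 1.5.0), using the trend option without robust fitting. The two-sided p-values received a Benjamini-Hochberg adjustment across every tested gene, with calls at an adjusted p under 0.05. The fit was tested on simulated data, in 5 runs with 200 of 12932 genes changed. At a true log2 change of 0.25, 0.5 and 1 it called 20.8%, 56% and 80.8% of the changed genes, and 0.033% of the unchanged ones. Genes that did not pass may thus have changed by small amounts. Far more genes were called in the data than were changed there, so these rates may not carry over. Partner differences were tested by exact permutation in scipy 1.17.1. Gene positions came from GENCODE M21, where all 37 genes were matched.

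The synthetases and all gene lists were chosen with earlier results of these data known. Results on single genes that are withheld for evaluation are not reported here, and all other synthetases are named. The counts and medians cover all 37 genes, and the plots of single genes and pairs leave the withheld ones out. Values in each library are given for the 3 largest rises and falls per compartment, for Gars, Kars, Wars and Wars2, and for genes that passed in no comparison. Of each list, up to 3 genes with the smallest adjusted p and its defining genes are named, and others are marked. The alternatives were other filters, a further 8 added before log2, quantile normalization, median centring, other limma settings and thresholds, a replicate block, and leaving out each library in turn.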

Additional observations from a re-analysis of the deposited data

How the results depend on the processing

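For the counts and medians of both compartments in the 3 comparisons, 323 values under other settings stayed within limits and 34 moved. The limits were a factor of 1.5 for a count and, for a median, the SD between replicates of the compartment's mean (0.0521 cytosolic, 0.0545 mitochondrial, log2). For the log2 fold changes of single genes, 1268 kept their direction and side of the threshold, 39 lost the call, 12 gained it and 13 changed sign, none of the last called under either setting. The cause of these changes was not tested.

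A 1.5-fold threshold left, in RANKL plus rmCst6 against RANKL, 2 cytosolic genes higher and 4 lower and 0 mitochondrial genes higher and 8 lower. In RANKL against control it left 0 mitochondrial genes lower, and in RANKL plus rmCst6 against control 0 cytosolic genes lower and 3 mitochondrial genes higher and 1 lower. An adjusted p under 0.01 left 0 lower mitochondrial genes in RANKL against control and 2 in RANKL plus rmCst6 against control. Shares over all genes were not counted at these stricter thresholds, so the counts under them cannot be set against the whole table. Quantile normalization, no trend and robust fitting each also left 0 lower mitochondrial genes in RANKL against control. Quantile normalization and median centring each gave 2 lower cytosolic genes in RANKL plus rmCst6 against control. With quantile normalization the cytosolic median was −0.14 in RANKL plus rmCst6 against RANKL, and the mitochondrial median was 0.73 in RANKL against control and 0.018 in RANKL plus rmCst6 against control. With median centring the medians were 0.73 (cytosolic) and 0.75 (mitochondrial) in RANKL against control, and 0.69 and 0.015 in RANKL plus rmCst6 against control. Pars2 in RANKL against control changed sign, to −0.11 and −0.072 under these scalings. Calls of single genes ended in RANKL plus rmCst6 against RANKL for Rars (median centring, no trend), Yars2 (both scalings) and Lars2 (no trend), and in RANKL against control for Qars (median centring, no trend), Cars2 and Vars2 (both scalings) and Lars2 (quantile normalization, no trend, robust). Nars, Eprs and Vars with quantile normalization and Mars1 with median centring gained a call in RANKL plus rmCst6 against RANKL.

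Leaving out a library in turn gave medians of −0.11 to −0.022 (cytosolic) and −0.58 to −0.43 (mitochondrial) in RANKL plus rmCst6 against RANKL, and 0.78 to 0.89 (mitochondrial) in RANKL against control. It gave 0 to 1 lower mitochondrial genes in RANKL against control and 2 to 4 in RANKL plus rmCst6 against control. The log2 changes that crossed 0 ran from −0.091 to 0.027 for Nars and −0.048 to 0.13 for Aars2 in RANKL plus rmCst6 against RANKL, and, in RANKL against control, from −0.089 to 0.029 for Nars, −0.047 to 0.012 for Hars2 and −0.069 to 0.13 for Pars2.

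The sources do not say whether replicate numbers pair the samples. Correlations of deviations were small (−0.078 to 0.071 for the same number, −0.082 to 0.083 for different numbers). For the same number they were 0.025, 0.065 and 0.071 between RANKL plus rmCst6 and RANKL. Between RANKL and control they were 0.044, 0.015 and 0.062, and between RANKL plus rmCst6 and control −0.070, −0.078 and 0.010. A weak pairing was therefore not settled. With the replicate block, 4457 genes were higher and 4901 lower in RANKL plus rmCst6 against RANKL, against 4499 and 4908 without it, and Eprs (adjusted p = 0.0441), Mars1 (0.0298) and Vars (0.0245) passed while Yars2 (0.0587) did not. Precision rests on 3 libraries per group, since the depth is unknown.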

Other observations

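Other genes around tRNA showed no common direction. Of 5 relatives of the synthetases and proofreading enzymes, 2 were higher in RANKL plus rmCst6 than in RANKL, 1 was lower and 2 did not pass. Tarsl2, a second cytosolic threonine enzyme that the name pattern does not take, had a log2 change of −2.05 with rmCst6 and of 1.32 in RANKL against control. The proofreading protein Prorsd1 had 0.86 and Dtd2 0.33 with rmCst6.

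Of 5 genes of the selenocysteine tRNA route, 3 were lower (among them Sephs2, log2 −0.61, and Pstk, −0.54), 1 was higher (Eefsec, 0.50) and 1 did not pass. Both tRNA export factors fell, Xpo5 by 0.52 and Xpot by 0.39 on the log2 scale. Of 8 proliferation genes, 3 were higher (Pcna, 1.11, Mcm2, 0.97, and Mcm5, 0.86) and 5 were lower with rmCst6. The lower ones, named after their values were seen, were Ccnb1 (log2 −1.52), Mki67 (−1.48), Top2a (−0.71), Cdk1 (−0.64) and Myc (−0.38). In RANKL against control, 7 of the 8 were higher and 1 was lower.

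Among marker lists with few genes in the table, the B cell marker Cd79b was higher with rmCst6 than with RANKL alone but lower than in control. Its linear level was 75.21 to 82.72 in RANKL plus rmCst6, 32.24 to 54.75 in RANKL and 182.8 to 219 in control. Against RANKL alone, 1 of 2 T and NK cell markers was higher and 1 lower, the basophil marker tested was higher, and 2 of 3 dendritic markers were lower.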
